A study of Mus musculus with 13 samples.

Results

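The synaptic vesicle and release machinery was followed here as 57 genes, taken by name from a list that covers the proteins of the vesicle membrane, the active zone, the fusion apparatus and the recovery of membrane after release. All 57 were found among the 22682 gene symbols that the tables of all 13 libraries share, and each had a gene model. The list holds 3 synapsins, 11 synaptotagmins, 4 SNARE proteins (Stx1a, Snap25, Vamp1, Vamp2), 3 complexins, 3 Munc13 and 3 RIM proteins, Bsn and Pclo, 4 Rab3 proteins, Rab27b with the Rab effector Rph3a, 3 SV2 proteins, Syp and Synpr, 2 synaptogyrins, 2 Doc2, 2 CAPS, 2 ELKS and 2 liprin-alpha proteins, Nsf with Napa and Napb, and 4 endocytosis genes (Dnm1, Amph, Sh3gl2, Synj1).

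The study used translating ribosome affinity purification (TRAP): in Chat-TRAP DW167 mice a transgene puts a GFP-tagged ribosomal protein into Chat cells, those that make acetylcholine, and anti-GFP beads pull down the mRNA on the tagged ribosomes (IP). Medial habenula, a small epithalamic nucleus rich in cholinergic neurons, was dissected from adult mice over 8 weeks of age. The 13 libraries are 6 IP libraries from mice that carry only Chat-TRAP DW167 (WT IP), 6 IP libraries from Gpr151-KO mice that carry the same transgene (KO IP), and 1 library of the total homogenate of Chat-TRAP DW167 mice (input). Every animal, the controls included, therefore carried the transgene. Each library is a pool of 4 mice, or of 3 in libraries 852 (WT) and 855 (KO). The labels state no treatment, strain background or sex, while most deposited tables have saline in their names and the input's has saccharin as well. Whether the input mice had been treated differently cannot be told apart from the difference between input and IP.

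A synaptic vesicle is tethered and docked at the active zone by Rab3, RIM, Munc13 and scaffold proteins, and is made ready for fusion by the SNARE proteins syntaxin, SNAP25 and synaptobrevin. Complexin holds and tunes the partly zippered SNARE complex, and a synaptotagmin senses calcium and triggers fusion; after fusion NSF takes the complex apart and dynamin, amphiphysin and endophilin proteins retrieve the membrane. Most of these proteins come as families of paralogs, and neurons differ in the paralogs they use. Cholinergic neurons of the medial habenula release acetylcholine together with glutamate onto the interpeduncular nucleus.

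Among the 14 paralog families described below, the share of a leading paralog differed most between homogenate and IP in CAPS, the calcium-dependent activator of secretion that primes dense-core and synaptic vesicles, and the largest enrichment among the members belonged to Synpr. The 250 bases before the annotated starts of Cadps2, Cadps and Synpr are printed below so that these promoters can be compared. They come from RefSeq (GRCm38.p6), run 5′ to 3′ on the gene's strand, and have each CG dinucleotide in capitals. The windows are chr6:23839422-23839671 (minus strand) for Cadps2, chr14:12823080-12823329 (minus strand) for Cadps, and chr14:13284530-13284779 (plus strand) for Synpr, and each ends at the base before the outermost GENCODE start.
Cadps2: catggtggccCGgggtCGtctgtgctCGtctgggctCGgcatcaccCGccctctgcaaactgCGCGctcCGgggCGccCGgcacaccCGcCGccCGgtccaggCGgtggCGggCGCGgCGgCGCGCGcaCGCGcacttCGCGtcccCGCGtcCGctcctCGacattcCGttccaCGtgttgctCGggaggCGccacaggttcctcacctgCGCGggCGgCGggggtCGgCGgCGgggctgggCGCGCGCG
Cadps: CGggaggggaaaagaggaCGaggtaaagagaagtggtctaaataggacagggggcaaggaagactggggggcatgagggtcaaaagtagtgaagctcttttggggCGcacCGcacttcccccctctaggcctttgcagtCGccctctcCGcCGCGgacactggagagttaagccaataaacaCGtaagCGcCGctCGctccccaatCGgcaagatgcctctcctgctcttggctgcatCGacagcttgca
Synpr: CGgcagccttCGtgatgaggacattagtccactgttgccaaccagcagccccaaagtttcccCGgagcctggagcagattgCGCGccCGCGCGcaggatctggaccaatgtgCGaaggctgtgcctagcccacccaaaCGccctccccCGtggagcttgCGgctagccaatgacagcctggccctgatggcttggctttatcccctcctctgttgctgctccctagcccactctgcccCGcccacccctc
The Cadps2 window held 44 CG dinucleotides at 78.0% G+C, and 0.539% of the 32851 RefSeq windows of this length held as many or more. Cadps held 14 at 58.0% G+C and Synpr 13 at 64.0%, counts reached by 29.4% and 31.5% of windows. Windows were found for 45 of the 57 genes. Their 58 windows had a median of 14.5 CG dinucleotides against 6 over all windows. Of the motifs searched on both strands, the octamer ATGCAAAT was found for 1 member, Synpr, in its other RefSeq window and not in the printed one, and in 1.60% of all windows. The cAMP response element TGACGTCA was in windows of Syn1 and Sh3gl2 and in 1.55% of all windows. The left part of the RE1 element, TTCAGCACC, was in windows of Syn1 and Ppfia3 and in 0.301% of all windows. The E-box CAGATG was in windows of Syn2, Rims3 and Pclo (14.4% of all windows), and TATAAA in those of Rab3b and Sv2b (12.4%). These matches describe letters only.

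Gpr151, an orphan receptor of habenular neurons and the targeted gene, had 382 to 589 CPM (counts scaled to library totals, per 1000000; median 466) in the WT IP libraries, 121 to 212 (median 135) in the KO IP libraries and 66.2 in the input. The groups did not overlap, and Gpr151 fell by 1.63 on the log2 scale in the knockout (SE 0.17, n = 6 against 6, edgeR quasi-likelihood test, adjusted p = 0.00674). The labels do not give which part of the gene was removed, so what the remaining counts cover is not known here. Libraries held 24851120 to 59735793 counts in the shared symbols, so that 3 counts correspond to 0.0502 to 0.121 CPM. Libraries 682, 683, 852 and 855 list other symbols (32531) than the 8 later ones (24454) or the input (37328), and both genotypes are in equal number in each set. Of 17 medial habenula markers measured well enough, 16 were enriched in WT IP, and their sum over the 18 listed was 5924 to 8767 CPM against 1068 in the input. Non-neuronal markers (56 genes of 6 lists, mean log2 CPM) spanned 0.26 to 2.46 in WT IP and 0.34 to 3.18 in KO IP libraries, with the highest values in libraries 1099 and 1102 (KO) and 1091 (WT).

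In all, 7 of the vesicle genes stood out as enriched on tagged ribosomes of wild-type mice: Synpr, Syn3, Cadps2, Syt9, Syt6, Cplx1 and Erc2. A further 6 were depleted: Rims3, Syn2, Rab3c, Syt12, Rims1 and Vamp1. A gene was called enriched when every one of the 6 IP libraries reached at least 2 times the input CPM (pseudocount 1), and depleted when every one was at most 0.5 times the input, among genes with 5 CPM in the input or as IP mean. With 1 input library this is a rule of size with no test. Of the 55 members that passed the filter (Cplx3 and Rab3d did not), 7 were enriched and 6 depleted, against 4.71% and 11.1% of 11434 genes. The members' median log2 ratio was -0.09, with 27 above and 28 below 0, beside -0.07 for all genes. In these bulk samples, fewer cells of a type and less RNA per cell cannot be told apart.

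In the KO IP libraries, set against the same wild-type input, 5 of 55 members were enriched (Syn3, Syt6, Syt9, Synpr, Cadps2) and 2 depleted (Vamp1, Rims3), beside 3.41% and 7.11% of 11399 genes. The median was -0.06 for the members and -0.11 for all genes. The number depleted moved with a single library: it was 11 in place of 6 without library 1091 (WT), which added Syt7, Rims2, Rph3a, Doc2b and Cadps, and 6 in place of 2 without library 1099 (KO). Scaling by TMM raised the median of all genes by 0.23 in both genotypes. It gave 9 members enriched and 2 depleted in WT IP, with Syt12 and Rims3 remaining depleted, and medians of 0.10 (WT) and 0.17 (KO) for the members. Under it the medians of Syt3, Bsn, Syngr1, Ppfia3 and Napa in WT IP changed from below to above 0.

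**Figure D1:**
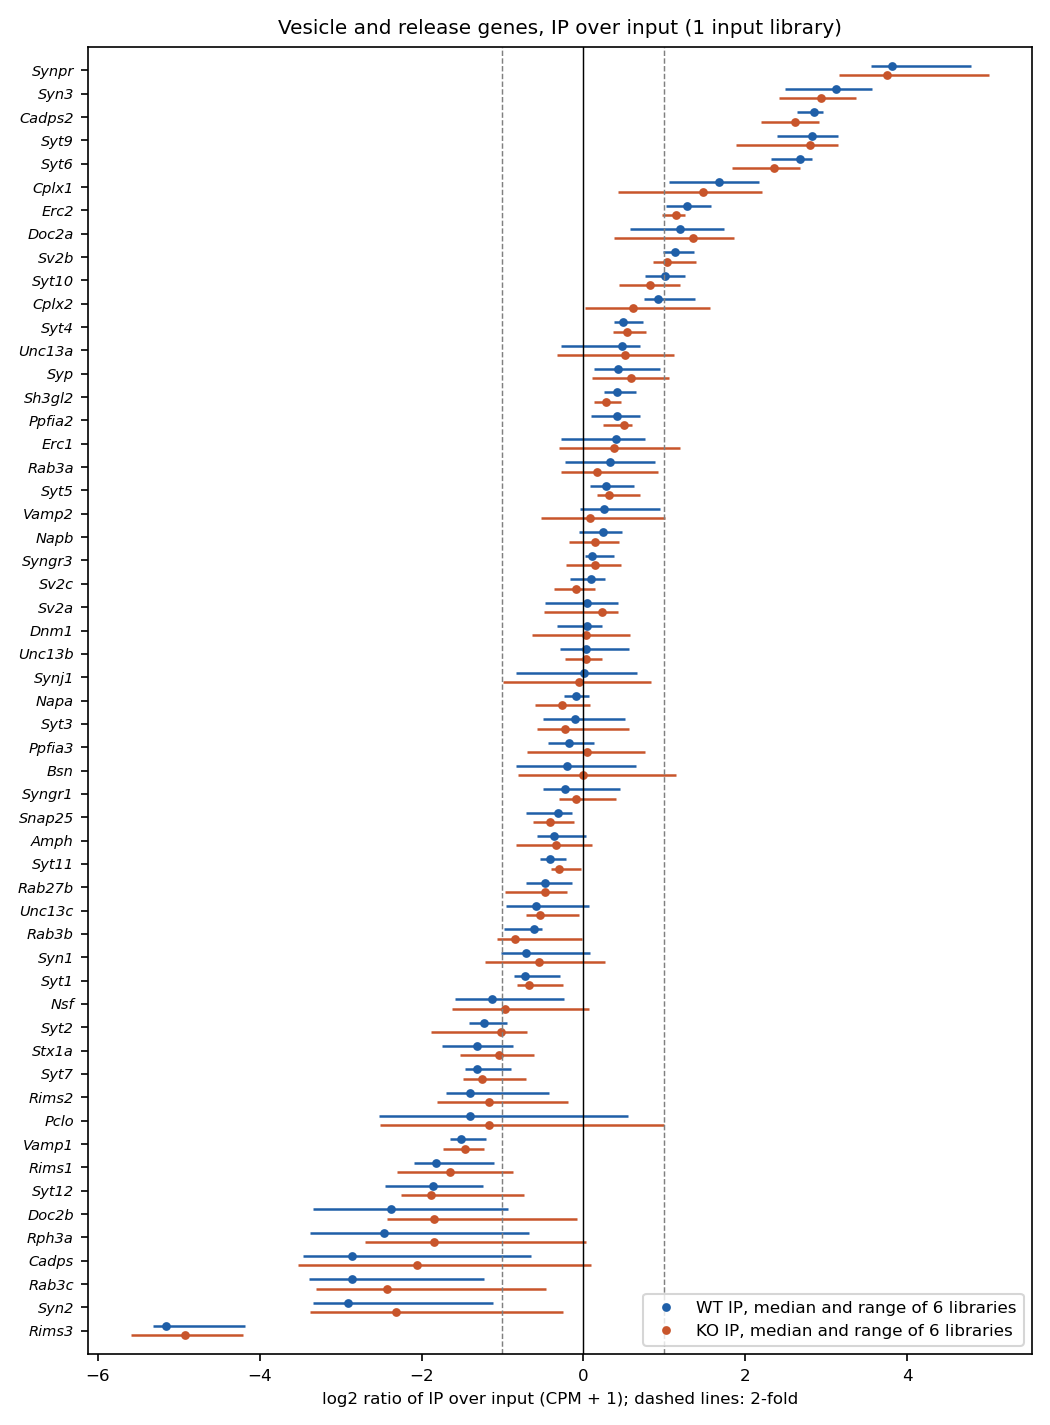
Log2 ratio of IP over input (CPM + 1) for the 55 members that passed the filter, with a row for each gene; points are medians and lines the range of 6 libraries for WT (blue) and KO (orange), and dashed lines mark 2-fold. Synpr (WT median 3.82) lies at the top and Rims3 (-5.15) at the bottom, and the widest lines belong to Pclo, Cadps, Rph3a, Doc2b, Syn2 and Rab3c.

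Synaptotagmins, the calcium sensors of release, differed in their leading paralog. Syt9, a fast sensor also found on dense-core vesicles, was at 263 CPM in the input, at 1391 to 2342 (median 1884) in WT IP and at 976 to 2349 (median 1884) in KO IP. All 12 IP libraries thus lay above the input, and the genotypes overlapped, with 2 KO libraries (1099 and 1102) below every WT library. Its log2 ratio over input was 2.83 in WT IP (range 2.40 to 3.15). Syt6 was at 174 CPM in the input, 873 to 1241 (median 1120) in WT IP and 623 to 1120 (median 897) in KO IP, a log2 ratio of 2.68 (2.32 to 2.83) in WT.

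Syt1, the main sensor of fast release in forebrain neurons, went from 1360 CPM in the input to 750 to 1117 in WT IP (log2 ratio -0.72). Syt7, a high-affinity sensor of slow and asynchronous release, had 501 CPM in the input and 181 to 268 in WT IP (log2 ratio -1.32). Neither was low enough in all 6 libraries to be called depleted. Per kilobase of merged exons, Syt9 made up 12.1% of the RNA of the 11 listed synaptotagmins in the input. It made up 44.9% ± 5.35 (SD, n = 6) in WT IP and 43.4% ± 8.33 (SD, n = 6) in KO IP. Here and below, a family's total is that of its listed members alone. Syt13 (314 CPM in the input, 543 ± 76.8 (SD, n = 6) in WT IP) and Syt15, for example, are left out. Syt1 held 29.7% of the input and 10.1% ± 1.98 (SD, n = 6) of WT IP. By RPKM (CPM per kilobase), Syt6 ranked 30 among the 57 members in the input and 8 in WT IP, and Syt9 ranked 20 and 4. At the low end, Syt12, which lacks calcium-binding residues, had 5.80 CPM in the input and 0.241 to 1.88 in WT IP (log2 ratio -1.86) and 0.429 to 3.08 in KO IP. The other synaptotagmins (Syt2, Syt3, Syt4, Syt5, Syt10, Syt11) had WT medians from 15.6 to 486 CPM and were not called.

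Among the CAPS proteins, Cadps2 was at 162 CPM in the input, 1013 to 1273 (median 1170) in WT IP and 745 to 1226 (median 1002) in KO IP. Its log2 ratio over input was 2.84 in WT IP (2.64 to 2.97), a narrow range. Cadps moved the other way, from 546 CPM in the input to 48.5 to 349 (median 77.3) in WT IP and 46.4 to 581 (median 141) in KO IP. That log2 ratio was -2.86 with a range of -3.47 to -0.65, and library 1091 alone kept Cadps from being called depleted in WT IP. Cadps2 made up 31.8% of CAPS RNA per kilobase in the input, 93.8% ± 5.65 (SD, n = 6) in WT IP and 86.6% ± 12.8 (SD, n = 6) in KO IP, and it was the higher paralog in all 12 IP libraries. By RPKM it ranked 36 of 57 in the input and 14 in WT IP. The Cadps2 and Cadps promoters are among those printed above. Cadps2 lies on chromosome 6, from 23262773 to 23839421, and Cadps on chromosome 14, from 12372563 to 12823079 (GRCm38, minus strand for both).

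**Figure D2:**
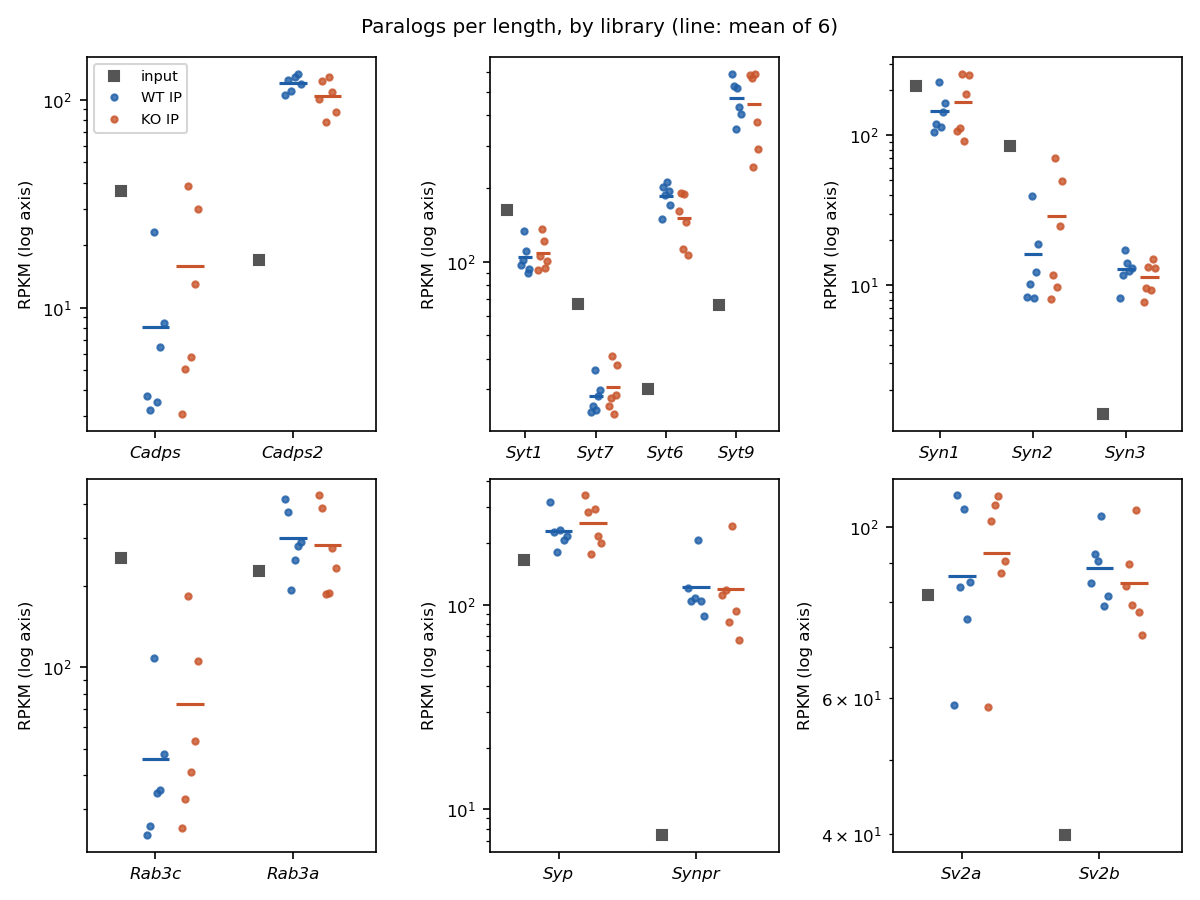
RPKM (log axis) of paralogs in the input (grey square), the 6 WT IP (blue) and the 6 KO IP libraries (orange), with lines at the means of 6. Cadps2, Syt6, Syt9, Syn3, Synpr, Sv2b and Syp lie above the input in every IP library. Syt1, Syt7, Syn2 and Rab3c lie below it in every IP library.

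Synpr and Syp encode synaptoporin and synaptophysin, related proteins of the vesicle membrane. Synpr (chromosome 14, 13284780 to 13616340, plus strand) had 70.1 CPM in the input, 833 to 1960 (median 1003) in WT IP and 633 to 2299 (median 965) in KO IP. At a log2 ratio of 3.82 (3.55 to 4.78) it was the most enriched member, and no IP library came near the input. Library 1092 (WT) and library 1100 (KO) held the highest values. Syp was at 857 CPM in the input and at 940 to 1661 (median 1155) in WT IP. As a share of the pair per kilobase, Synpr made up 4.32% of the input, 34.3% ± 7.25 (SD, n = 6) of WT IP and 31.0% ± 7.61 (SD, n = 6) of KO IP. With coding length in place of merged exons the share was 7.31% in the input and 47.4% in WT IP.

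Synapsins coat vesicles and hold them in the reserve pool. Syn3 (chromosome 10, 86055125 to 86498896, minus strand) had 17 CPM in the input, 100 to 212 (median 156) in WT IP and 95.3 to 185 (median 139) in KO IP, a log2 ratio of 3.13 (2.49 to 3.57) in WT. Syn2 showed the reverse, with 595 CPM in the input, 57.8 to 274 (median 78.8) in WT IP and 56.5 to 497 (median 127) in KO IP. Its log2 ratio was -2.91 (-3.34 to -1.11), and under TMM the library nearest to the input reached -0.83, so that Syn2 was no longer called. Syn1 remained the highest synapsin per kilobase (71.2% of the input, 83.9% ± 2.17 (SD, n = 6) of WT IP). Syn3 held 0.462% of the input and 7.59% ± 1.55 (SD, n = 6) of WT IP, or 1.45% and 24.4% by coding length. Timp3 and Timp4 overlap exons of Syn3 and Syn2 on the other strand, and no source used here gives the strand setting of the counting.

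Snap25, Cplx1 and Vamp2, a complexin and SNARE proteins, ranked 1, 2 and 3 among the members by RPKM in WT IP. Snap25 was the highest member per kilobase in both fractions, with 1616 RPKM in the input and 1272 ± 177 (SD, n = 6) in WT IP. In CPM it had 10977 in the input, 6742 to 9972 (median 8871) in WT IP and 7153 to 10147 (median 8235) in KO IP, all below the input by less than 2-fold. Cplx1 had 760 CPM in the input, 1587 to 3427 (median 2430) in WT IP and 1027 to 3522 (median 2131) in KO IP. Its log2 ratio was 1.67 (1.06 to 2.17) in WT IP, and 0.43 in the lowest KO library, 1099, where the call was missed. Cplx1 was the highest complexin in all 13 libraries (88.9% of complexin RNA per kilobase in the input and 92.6% ± 0.904 (SD, n = 6) in WT IP). Cplx3, the retinal and subplate complexin, had 0 to 12 counts in the WT IP libraries and 1 to 27 in the KO IP libraries, at most 0.525 CPM. Vamp2, the main synaptobrevin, had 2034 to 4034 CPM in WT IP and 2095 in the input. Vamp1, a second synaptobrevin, had 210 CPM in the input, 66.2 to 91.2 (median 73.2) in WT IP and 62.7 to 89.1 (median 75.9) in KO IP, a log2 ratio of -1.51. Under TMM its nearest library was at -0.98, just inside 2-fold. Stx1a, the syntaxin of the list, had 41.4 CPM in the input and 11.6 to 22.3 in WT IP.

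At the active zone, Erc2, an ELKS scaffold protein, had 136 CPM in the input, 278 to 407 (median 333) in WT IP and 269 to 325 (median 301) in KO IP. It passed the rule narrowly in WT IP (1.02 to 1.57) and missed it in KO IP (lowest 0.98). Rims1, which links Rab3 and calcium channels to Munc13, had 260 CPM in the input, 60.1 to 121 (median 73.1) in WT IP and 51.8 to 141 (median 82.5) in KO IP, a log2 ratio of -1.82. That call too was lost under TMM (nearest library -0.82). Rims3, a short RIM without the Rab3- and Munc13-binding parts, had 382 CPM in the input, 8.60 to 20.1 (median 9.76) in WT IP and 6.98 to 19.7 (median 11.8) in KO IP. At -5.15 it was the 9th lowest of 11434 genes. Eno1 (-6.23) and Rpl26 (-5.55), genes used by every cell, lay lower still. The input lists other symbols than the IP libraries. For Rims3 a difference in gene models cannot be told apart from a difference in RNA. The same limit holds for every ratio over the input and every share in the input, those of Synpr, Syn3 and Cadps2 included.

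Because Rims3 weighs on the RIM family, its shares carry the same limit: 43.6% of the input and 6.60% ± 3.33 (SD, n = 6) of WT IP. Rims1 and Rims2 held 45.6% ± 4.09 and 47.8% ± 4.38 (SD, n = 6) of WT IP, which did not differ beyond their spread. With the longest transcript they held 31.9% ± 3.58 and 63.1% ± 4.11 (SD, n = 6), and Rims2 led in all 6 libraries. Unc13a, the main Munc13 priming factor, was 39.8% of Munc13 RNA per kilobase in the input and 54.1% ± 4.84 (SD, n = 6) in WT IP, and Unc13b was lowest at 6.83% ± 1.30 (SD, n = 6). Bsn and Pclo, giant scaffold proteins, held 42.7% and 57.3% of their pair in the input, and Bsn held 61.2% ± 9.49 (SD, n = 6) in WT IP. Library 1091 was the exception, with Bsn at 44.4%. The 2 listed liprins, Ppfia2 and Ppfia3, kept their order, with Ppfia2 at 84.3% ± 2.35 (SD, n = 6) of the pair in WT IP. Ppfia1 and Ppfia4 were outside the list. Their WT IP means, 69.1 and 91.8 CPM, lay above that of Ppfia3 (30.6 CPM).

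Rab3 proteins mark vesicles for docking. Rab3c had 3042 CPM in the input, 289 to 1299 (median 419) in WT IP and 306 to 2203 (median 568) in KO IP. Its log2 ratio was -2.86 (-3.39 to -1.23) in WT IP, and in KO IP library 1099 came within -0.47 of the input. Rab3a, the most abundant brain Rab3, had 503 CPM in the input and 431 to 927 (median 633) in WT IP. Rab3a made up 45.7% of Rab3 RNA per kilobase in the input and 83.3% ± 11 (SD, n = 6) in WT IP. These shares depend on the length used: by coding length they were 14.9% and 57% ± 17.6 (SD, n = 6). Rab3d was lowest, at 1.79 CPM in the input and 2.11 to 4.13 in WT IP. Rph3a, rabphilin, binds Rab3 and Rab27; it had 474 CPM in the input, 44.8 to 297 (median 85.9) in WT IP and 71.9 to 484 (median 141) in KO IP, and was not called because of the same wide range.

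SV2 proteins are vesicle glycoproteins that modulate release. Sv2b had 334 CPM in the input and 663 to 866 (median 734) in WT IP, and missed the enrichment rule by its lowest library (log2 ratio 0.99). Sv2b and Sv2a held 48.7% ± 4.29 and 46.8% ± 4.29 (SD, n = 6) of SV2 RNA per kilobase in WT IP, which did not differ beyond their spread, against 30.8% and 63.2% in the input. This rests on the length used: with the longest transcript Sv2b held 57.3% ± 4.15 and Sv2a 38.9% ± 4.09 (SD, n = 6) of WT IP, and Sv2b led in all 6 libraries, as it did by coding length. Sv2c was lowest at 4.55% ± 0.507 (SD, n = 6). Doc2a and Doc2b, calcium sensors of spontaneous release, were low throughout, at 4.29 to 10.8 and 2.33 to 16.7 CPM in WT IP. Doc2b was the higher paralog in the input (89.2%), and Doc2a in 4 of 6 WT IP libraries. Synaptogyrins differed little, with Syngr3 at 55.3% of the pair in the input and 60.2% ± 3.44 (SD, n = 6) in WT IP. By coding length Syngr1 led instead, at 56.5% in the input and 51.5% ± 3.53 (SD, n = 6) in WT IP, where it led in 4 of 6 libraries. Among the genes of membrane recovery, Dnm1 had 647 CPM in the input and 517 to 759 in WT IP, Synj1 944 and 531 to 1492, Sh3gl2 584 and 694 to 916, and Amph 235 and 158 to 240. None of these 4, nor Nsf, Napa or Napb, was called.

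Over the 14 families, the listed paralog with the highest mean level per kilobase differed between input and WT IP in 8: the synaptotagmins, Munc13, RIM, Bsn and Pclo, Rab3, SV2, Doc2 and CAPS. The count was 8 with the longest transcript and 7 with coding length. By merged exons, the new leading paralog led in every WT IP library in the synaptotagmins, Munc13, Rab3 and CAPS. With the longest transcript RIM and SV2 joined them. By coding length Munc13 had no new leader and Rab3a led in 5 of 6 libraries, while Sv2b led in all. Exons of Rab3a, Unc13a, Doc2a and Sv2b overlap Mpv17l2, Colgalt1, Ino80e and 1500012K07Rik on the other strand. Those of Syn1 and Ppfia2 overlap Araf and Acss3 in the same way. The shares of these genes carry the same limit as those of Syn2 and Syn3.

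**Figure D3:**
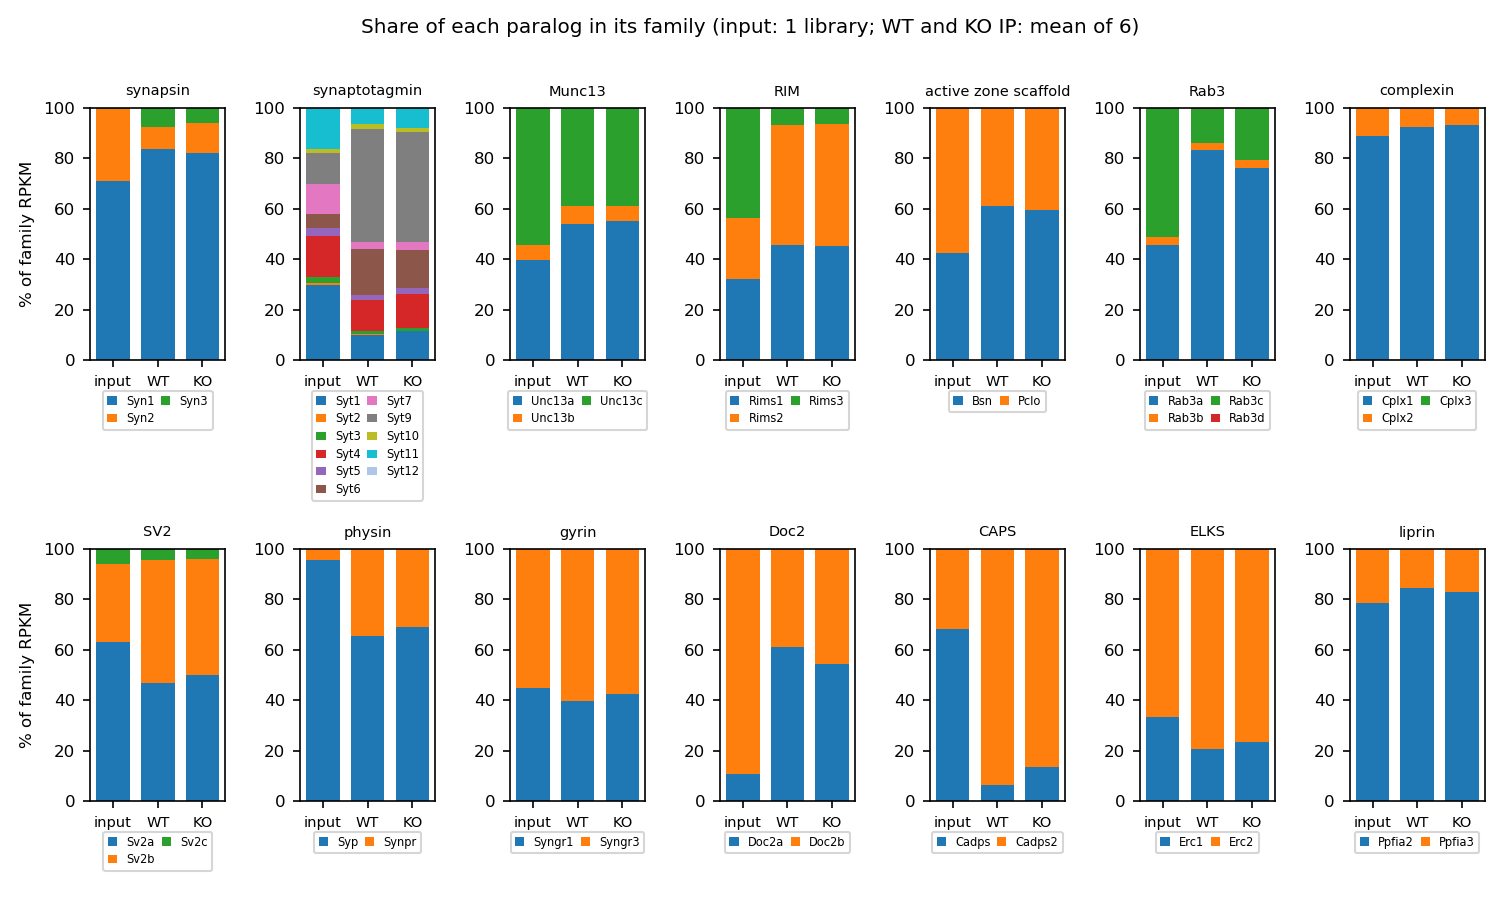
Share of each paralog in the summed RPKM of the listed members of its family, in percent. Columns are the input (1 library) and the means of the 6 WT IP and 6 KO IP libraries. Each panel is a family. The CAPS and Doc2 panels differ most between the input and the IP columns, while complexin, synaptogyrin and liprin panels change little.

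Between genotypes, no vesicle or release gene passed the test in the Gpr151 knockout. All 57 were tested among 15498 genes (edgeR quasi-likelihood test with library set as a term). None reached an adjusted p under 0.05, where 2 genes did (0.0129%): Gpr151, lower, and Oxt, higher (0.00645% in each direction), with 1 to 3 counts in each WT IP library and 16 to 47 in each KO IP library. DESeq2 called 12 of 15196 genes (0.079%) and no member. The unadjusted p was under 0.05 for 1 member by either tool, Cplx2, against 3.19% of all genes by edgeR. No member had groups that did not overlap, where 0.136% of genes did. The count of 2 genes was 0 without any of libraries 682, 683, 852 and 855 and with the 8 later libraries alone, where Gpr151 had an adjusted p of 0.424 in edgeR. It was 1 without any of 1091, 1092, 1093, 1094, 1099, 1100 and 1102.

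The members' fold changes lay close to 0: the median was 0.06, with 34 above 0 and 23 below, beside a median of 0.01 and 51.2% above 0 for all genes. For 45 members the log2 fold change was within 0.25 of 0. The 95% interval lay within ±0.5 for 31 members and within ±1 for 49, so a 2-fold change lay outside the interval of those 49. Adding the non-neuronal marker score as a covariate left 24 members above 0 (median -0.04), and leaving out libraries 1091, 1099 and 1102 left 29 (median 0.00).

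**Figure D4:**
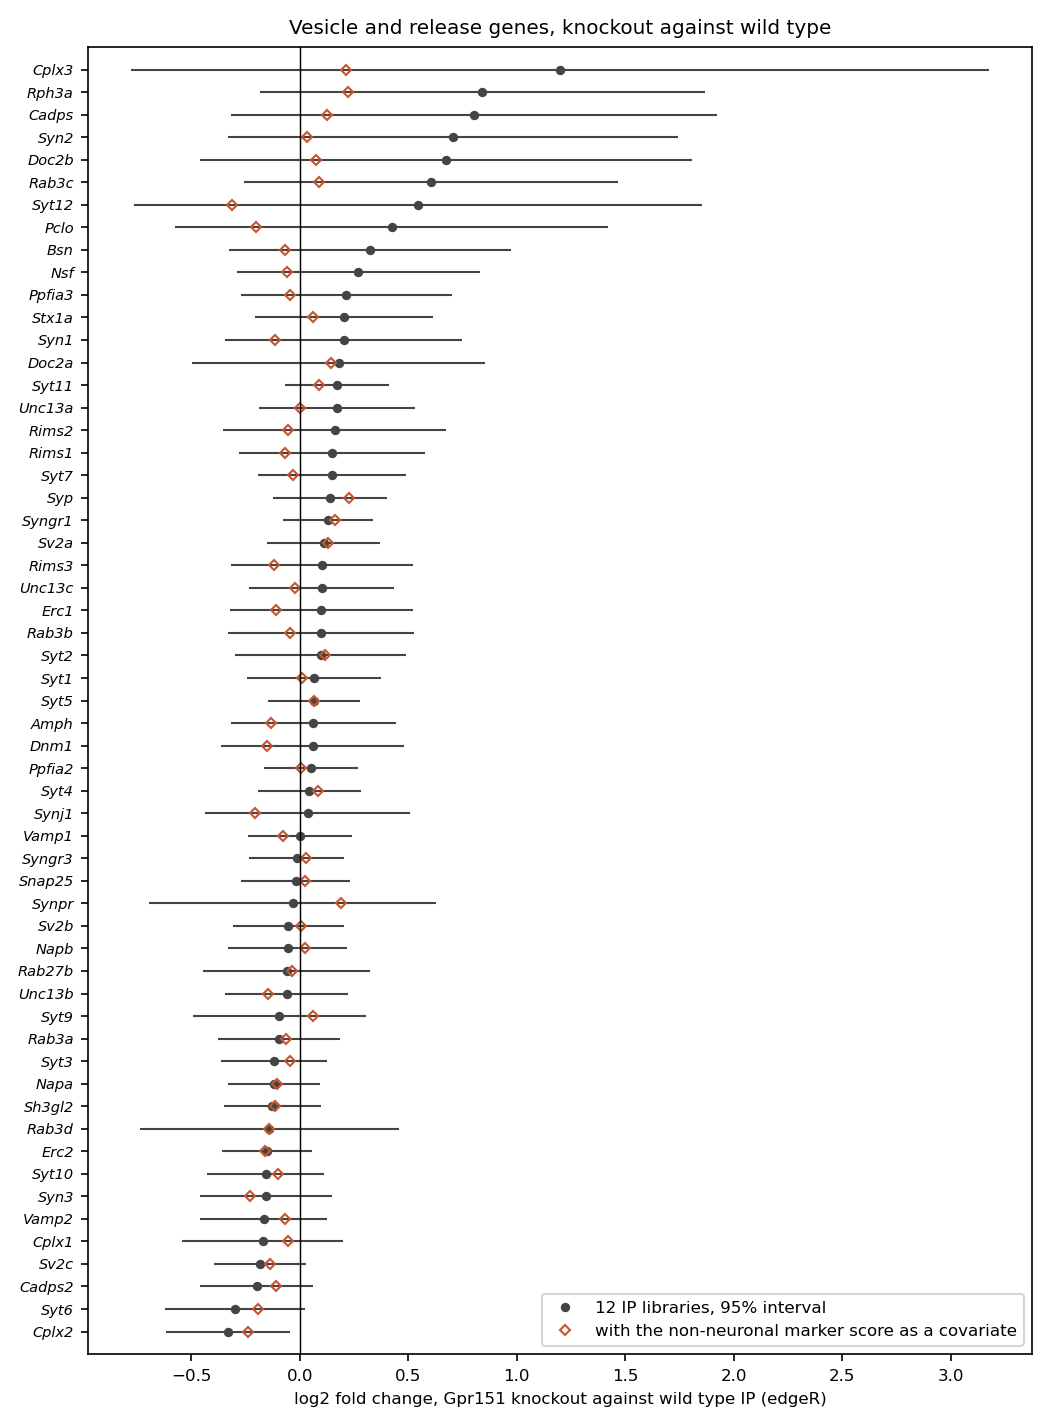
Log2 fold change of KO against WT IP for the 57 members (edgeR); points and lines are estimates and 95% intervals over 12 libraries, and open diamonds are estimates with the non-neuronal marker score as a covariate. Rph3a (0.84) and Cadps (0.80) are among the highest with wide intervals, and their diamonds lie at 0.22 and 0.13.

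The 5 members with the smallest p on the higher side were Rph3a, Syt11, Cadps, Rab3c and Syn2. Rph3a had a log2 fold change of 0.84 (SE 0.47, 95% interval -0.18 to 1.87), and 0.22 with the covariate. Cadps stood at 0.80 (SE 0.51) and 0.13, Rab3c at 0.60 (SE 0.40) and 0.09, and Syn2 at 0.71 (SE 0.48) and 0.03 in the same pair of fits. Without library 1099 (KO) the 3 estimates were 0.48, 0.24 and 0.36, and without library 1091 (WT) they were 1.28, 0.93 and 1.06. Each of these 4 had its highest value in library 1099 with 1102 and 1091 next below it, the libraries with the most non-neuronal marker RNA. Syt11, a synaptotagmin that does not bind calcium, had 459 CPM in the input, 315 to 397 (median 344) in WT IP and 349 to 449 (median 372) in KO IP, a log2 fold change of 0.17 (SE 0.11).

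Cplx2, the second complexin, led the lower side. It had 357 to 557 CPM (median 405) in WT IP, 216 to 632 (median 327) in KO IP and 213 in the input. Of the KO IP libraries, 5 of 6 lay below every WT IP library, and library 683 lay above them all. Its log2 fold change was -0.33 (SE 0.13, 95% interval -0.62 to -0.05, edgeR adjusted p = 0.999), and -0.24 with the covariate. Within library sets the difference in log2 CPM was 0.19 (683 against 682), -0.28 (855 against 852) and -0.49 (the 8 later libraries), so its direction did not hold in every set. Without libraries 1091, 1099 and 1102 the log2 fold change was -0.19.

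Syt6 followed at -0.30 (SE 0.15), with 0.12, -0.10 and -0.47 in the 3 sets. Cadps2 was at -0.20 (SE 0.12), with -0.06, -0.04 and -0.29. Erc2 was at -0.15 (SE 0.10), with 0.03, -0.24 and -0.17, and -0.09 without library 1091. Sv2c, the SV2 form of basal ganglia and hindbrain, had 67.1 to 90.8 CPM (median 80.7) in WT IP, 58.2 to 83.5 (median 71.1) in KO IP and 75.4 in the input. Its log2 fold change was -0.18 (SE 0.10), with -0.13, -0.14 and -0.21 in the sets. None of these passed the test, and the adjusted p was 0.999 for each in edgeR.

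Cell type markers moved between the groups beside these values, although no marker in any of these lists was called. An unadjusted edgeR p under 0.05 was found for 6 of 10 GABAergic, 3 of 12 astrocyte, 2 of 7 choroid plexus and ependymal, 1 of 12 lateral habenula and thalamus and 1 of 18 medial habenula markers, and for none of the other 4 lists. All 10 GABAergic markers had log2 fold changes above 0 (median 1.13), with summed levels of 25.6 to 193 CPM in WT IP, 75.9 to 389 in KO IP and 771 in the input, and 3 of the 10 were at 0 in some IP library. All 12 astrocyte markers were above 0 (median 0.85), at 196 to 1260 CPM summed in WT IP and 194 to 2258 in KO IP. So were all 12 oligodendrocyte markers (median 0.78, 163 to 823 and 218 to 1567 CPM) and all 6 of oligodendrocyte precursors (median 0.62, 8.00 to 60.8 and 9.88 to 104 CPM). Microglial markers were above 0 for 8 of 10 (median 0.45), endothelial for 6 of 8 (median 0.36), choroid plexus and ependymal for 6 of 7 tested (median 0.99), and lateral habenula and thalamus markers for 9 of 12 (median 0.39). None of the 18 medial habenula markers was above 0 (median -0.21), at 5924 to 8767 CPM summed in WT IP and 4431 to 9312 in KO IP. These directions did not hold in every library set. The non-neuronal score was 0.95 in 682 (WT) and 0.34 in 683 (KO), but 0.26 in 852 (WT) and 0.98 in 855 (KO). Medial habenula markers summed to 8200 CPM in 682 and 8036 in 683, but to 8767 in 852 and 9312 in 855. The part of these shifts in the members' values was not tested beyond the covariate and the fit without libraries 1091, 1099 and 1102.

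Libraries of the same genotype differed widely for some members. Over the 12 IP libraries the ratio of highest to lowest CPM had a median of 2.28 for the 56 members with counts in every library, and 2.25 over 11359 genes. In all, 7 members exceeded 5-fold: Doc2b (13.3), Syt12 (12.8), Cadps (12.5), Pclo (11.5), Rph3a (10.8), Syn2 (8.81) and Rab3c (7.63), against 11.7% of all genes. All 7 were highest in library 1099. In total 23 of 57 members were highest in library 1099 or 1102, beside 27.7% of all genes. At the other end, Syt4 (1.32), Syt11 (1.42), Sh3gl2 (1.43) and Sv2b (1.45) varied least, and 24 members varied under 2-fold. Cplx1, Cplx2, Vamp2, Rab3a and Syp had their highest values in library 683, a KO library, with 682, the WT library of that set, next.

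**Figure D5:**
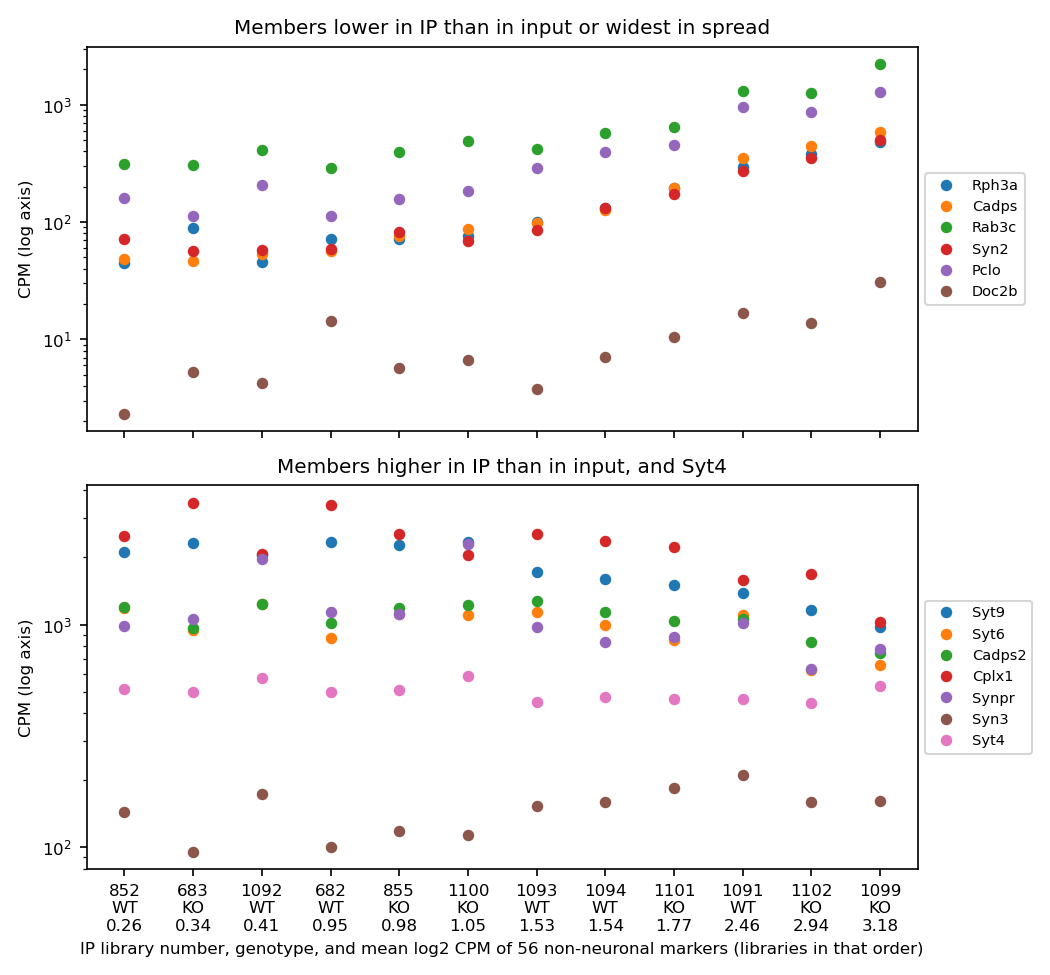
CPM (log axis) of members in the 12 IP libraries, ordered by their score for the 56 non-neuronal markers (mean log2 CPM), printed under each library with its genotype. Upper panel: Rph3a, Cadps, Rab3c, Syn2, Pclo and Doc2b, each highest at the right end in library 1099. Lower panel: Syt9, Syt6, Cadps2, Cplx1, Synpr, Syn3 and Syt4, none of which is highest in that library. The depleted Rims3, Vamp1, Rims1 and Syt12 and the enriched Erc2 are not drawn. Rims1 and Syt12 were highest in library 1099, Rims3 in 852, Vamp1 in 682 and Erc2 in 1091.

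Other genes of the pathway, from lists of the same scope, gave the same count between genotypes: 0 of 42 further vesicle and release genes, 0 of 29 further endocytosis genes and 0 of 20 genes of transmitter loading were called by edgeR (1, 0 and 1 had an unadjusted p under 0.05). Against the input, 4 of 38 further release genes were enriched in WT IP. Syt15, an atypical synaptotagmin, went from 16.7 CPM in the input to 268 ± 27.1 (SD, n = 6), a log2 ratio of 3.96. Stxbp5l, a tomosyn that holds back SNARE assembly, went from 116 to 762 ± 239 CPM (2.66). Sncg, gamma-synuclein, went from 17 to 78.2 ± 31.8 CPM (2.20). Prrt2, which binds SNAP25, stood at 1.25 CPM in the input and 164 ± 23.6 in WT IP (6.20), where the difference between gene tables again cannot be told apart from one in RNA.

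Depleted genes of this list included Stxbp6 (log2 ratio -4.04), Rims4 (-3.25), Snap23 (-1.96), Lin7a (-1.91) and Lin7b (-1.59). Of 28 endocytosis genes none was enriched and 1, Synj2, was depleted (-2.80). Of 19 loading genes 3 were enriched: Slc18a3 (3.77), the vesicular acetylcholine transporter, Slc17a7 (2.85), a vesicular glutamate transporter, and Slc18a2 (1.64), the vesicular monoamine transporter. Slc32a1, the GABA and glycine transporter of vesicles, was depleted (-2.56).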

How the data were processed

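Medial habenula RNA of 6 WT IP, 6 KO IP and 1 input library was sequenced after SPIA amplification with the Ovation kit, per the labels' protocols. The authors deposited a table of read counts per gene symbol for each library. STAR 2.3.0e, HTSeq, DESeq2 and the mm10 build are named in the submitters' processing notes, without settings. Reads placed at several sites (25.2 to 53.2% of a table), in no feature (9.44 to 16.6%) or in ambiguous features (0.581 to 3.98%) stayed out of all totals. The ambiguous share was 3.98% in the input and 0.581 to 1.36% in the IP libraries. CPM and RPKM are relative to the counts in the 22682 shared symbols. Rn45s, a ribosomal RNA gene with 2.25 to 12.6% of IP counts, is not among them. RPKM used merged exon lengths of GENCODE M21 (GRCm38).

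KO and WT IP were compared with edgeR 4.0.16 (R 4.3.3; limma 3.58.1) on the 23857 symbols of the 12 IP tables: TMM, filterByExpr, library set and genotype as terms, robust quasi-likelihood test, two-sided, Benjamini-Hochberg adjustment over 15498 genes, threshold 0.05. DESeq2 1.42.0 was an alternative. The main fit was also run on simulated counts, and no result here rests on that run. Those counts were drawn for each gene on its own, so shifts shared by many genes of a library were not covered. The libraries are separate pools of mice, so p-values measure the spread between pools. The genes named are Gpr151, the members enriched or depleted over input, the 5 members with the smallest p in each direction, and the highest and lowest paralog of each family. Other names were chosen after their values were seen. The members and lists were chosen with earlier results of these data known. Of the listed genes, Tspoap1 was not analysed here. No source used here gives the strand setting of the counting, and exons of 11 members overlap a listed gene on the other strand.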

Additional observations from a re-analysis of the deposited data

Results flagged for a closer look

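In 4 of 114 combinations of a member and a group of 6 libraries, a single library stood apart from the others by Dixon's criterion. The criterion was applied on a log scale, and groups can differ from these on the plain CPM printed here. Chance alone flags about 1 group in 20. Synpr had 1960 CPM in WT IP library 1092, where the other 5 had 833 to 1136. Sv2a had 271 CPM in KO IP library 683, against 405 to 509 in the others. Rims3 had 20.1 CPM in WT IP library 852, against 8.60 to 11.7. Syt3 had 58.6 CPM in KO IP library 855, against 26.1 to 34.2.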

How the results depend on the processing

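No member was called between genotypes under any alternative run, and the 10 named members kept the sign of their fold change in all of them. The number of genes called, 2, was 12 with DESeq2, 1 with a filter of 1 CPM in 6 libraries, 0 with the 8 later libraries alone, 1 without libraries 1091, 1099 and 1102, and 0 to 2 when each library was left out in turn. Members depleted in WT IP numbered 6, 12 with a threshold of 1.5 times, 2 with TMM factors, and 6 to 11 when each library was left out. For KO IP the number was 2, and it was 7, 1, and 2 to 6 under the same alternatives. Members enriched in KO IP numbered 5, 5 to 6 when each library was left out, and up to 8 over all alternatives. Those enriched in WT IP numbered 7, and 7 to 10 over all alternatives. In an edgeR fit the input, with no replicate, took its spread from the IP libraries, so only sizes are given. Its WT IP log2 ratios were -4.86 (Rims3), -2.19 (Syn2), -2.26 (Rab3c), -2.35 (Syt12), -1.51 (Rims1) and -1.26 (Vamp1). Members that the rule did not call lay low as well, among them Cadps (-1.96), Syt7 (-1.06) and Stx1a (-1.10). The cause of these differences was not tested. Leaving out Rn45s was not run for IP over input, since the shared symbols do not include it. No paired analysis was possible because the labels give no replicate numbers to match libraries one to one; library set was instead a term of the comparison, and 2 genes were called with it and 2 without. A single input and 3 counts at 0.0502 to 0.121 CPM limit what low members such as Cplx3 can show.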
